A study of Rattus norvegicus with 4 samples.

Results

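The miR-17 seed family is the group of microRNAs that carry the same seed, bases 2 to 8, and come from the miR-17-92 cluster and its paralogues. Its members were taken by name, as the probes for rno-miR-17-5p, rno-miR-20a, rno-miR-20b-5p, rno-miR-93 and rno-miR-106b (the prefix stands for rat and is left out below), without the starred opposite arms. These were 5 of the 679 miRNA probes of the array, each with 1 spot. The tissue was prostate from male TRAP rats, which model prostate cancer and in which a viral T antigen under the probasin promoter transforms the prostate epithelium. All groups carried the transgene and were fed a control diet, and no group came from rats without it. Treatment began at 6 weeks of age and was given by vein, 2 times a week over 8 weeks. The groups were ventral prostate after OBP-801, an inhibitor of histone deacetylases, ventral prostate after saline, lateral prostate after OBP-801 and lateral prostate after saline. For OBP-801 the protocol states a dose of 1 mg/kg, and the agent's own label states 1 mg without reference to weight. Each group was 1 array, so no group had a replicate, and the number of rats behind an array is not stated in the labels.

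MicroRNAs of this family guide the silencing complex to messenger RNAs that pair with the seed, and their known targets include the cell cycle inhibitor Cdkn1a and the pro-apoptotic Bcl2l11. The clusters are transcribed under Myc and E2F factors and are associated with proliferation in many tumours, prostate cancer included. The mature sequences below are from RefSeq (GRCr8), with the seed in capitals, and are shown because the shared seed defines the family and the remaining bases tell its members apart.
miR-17-5p: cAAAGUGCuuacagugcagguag
miR-20a: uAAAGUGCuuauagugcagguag
miR-20b-5p: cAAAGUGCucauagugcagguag
miR-93: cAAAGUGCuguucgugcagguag
miR-106b: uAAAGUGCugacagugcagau
All 5 probes were matched to a mature sequence. For miR-20a, miR-93 and miR-106b the unstarred name was taken as the 5′ arm, since the array has a starred probe for the other arm. Of 724 mature rat entries in RefSeq, 6 carry this seed, and they bear the names of these 5 miRNAs, with miR-17-5p listed at a pair of loci.

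Outside the seed the members were closely alike. Positions are counted from 1 at the 5′ end, without gaps and over the shared length. Against miR-17-5p, miR-20a differed by C1U and C12U, and miR-20b-5p by U10C and C12U. The difference of miR-93 from miR-17-5p was U10G, A11U, C12U and A13C, and that of miR-106b, over 21 bases, was C1U, U10G and G20A. The pair furthest apart was miR-93 and miR-106b, with 5 mismatches over 21 bases. How far each probe also binds its near-identical relatives was not tested.

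The family spreads over 3 clusters. The genes of miR-17-5p (chr15:98587861-98587883, plus strand) and miR-20a (chr15:98588318-98588340, plus strand) lie in the miR-17-92 cluster, whose 6 miRNA genes span 785 bases. A second copy of miR-17-5p, at the gene Mir106a (chrX:137343615-137343637, minus strand), lies with miR-20b-5p (chrX:137343239-137343261, minus strand) in the miR-106a-363 cluster of 5 miRNA genes. The mature sequence of both copies is identical, so the miR-17-5p probe reads them together. The genes of miR-106b (chr12:22157103-22157123, minus strand) and miR-93 (chr12:22156894-22156916, minus strand) form the miR-106b-25 cluster with miR-25, within the span of Mcm7, which encodes a subunit of the replicative helicase.

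All 5 members were detected on all 4 arrays, that is, above the mean plus 2 SD of the blank spots. The dimmest reading was 3.59 times this limit, for miR-20b-5p in lateral OBP-801, and the brightest was 12.5 times, for miR-106b in lateral saline. The values below are first the spot median intensity as scanned and then log2 values after background correction and quantile normalization. Differences are OBP-801 minus saline on that log2 scale unless stated, and an offset of 50 in the background correction understates the change of dim probes. Brightness differs between probes for reasons of hybridization, so levels are compared between arrays and not between members. The quantity of RNA per cell and the number of cells that express a miRNA cannot be told apart in tissue RNA.

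In the miR-106b-25 cluster, the signal of miR-106b (MIMAT0000825) was 891 in ventral OBP-801 and 1474 in ventral saline, and it was 1444 in lateral OBP-801 and 1558 in lateral saline. By scanned signal the ventral OBP-801 array was the low one, and the other 3 lay close together. Normalized log2 values were 10.03 in ventral OBP-801 and 10.86 in ventral saline, a difference of -0.84 or 1.79-fold lower. In lateral prostate they were 10.19 after OBP-801 and 10.42 after saline, a difference of -0.23 or 1.17-fold lower. On the normalized scale both OBP-801 arrays thus lay below both saline arrays. Its cluster neighbour miR-93 (MIMAT0000817), which also lies within Mcm7, was low after OBP-801 in both lobes. The signal of miR-93 was 433 in ventral OBP-801 and 711 in ventral saline, against 623 in lateral OBP-801 and 759 in lateral saline. The normalized difference of miR-93 was -0.75, or 1.68-fold lower, in ventral prostate and -0.57, or 1.48-fold lower, in lateral prostate.

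In the miR-17-92 cluster the ventral differences were smaller. The signal of miR-17-5p (MIMAT0000786), the founding member and the one with the second locus, was 597 in ventral OBP-801 and 813 in ventral saline. In lateral prostate its signal was 617 after OBP-801 and 604 after saline, so the array of ventral saline stood above 3 similar ones. After normalization miR-17-5p differed by -0.42 in the ventral lobe and by -0.27 in the lateral lobe, but the lateral value was 0.03 with no normalization between arrays and -0.03 with scaling on the spike controls. The signal of miR-20a (MIMAT0000602), encoded downstream in the same cluster, was 426 in ventral OBP-801 and 558 in ventral saline. It was 523 in lateral OBP-801 and 563 in lateral saline. After normalization miR-20a differed by -0.38 in the ventral lobe and by -0.27 in the lateral lobe, close to the values of miR-17-5p. With print block medians removed, the ventral values were -0.53 for miR-20a and -0.33 for miR-17-5p. Under that setting miR-93 was at -0.55, near miR-20a, and miR-106b at -0.92.

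From the miR-106a-363 cluster, miR-20b-5p (MIMAT0003211) had a signal of 440.0 in ventral OBP-801 and 659.5 in ventral saline. Its signal was 464 in lateral OBP-801 and 605 in lateral saline. Both arrays of treated rats thus lay below both arrays of saline rats. The normalized differences of miR-20b-5p were nearly equal, -0.52 in the ventral lobe and -0.53 in the lateral lobe.

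**Figure D1:**
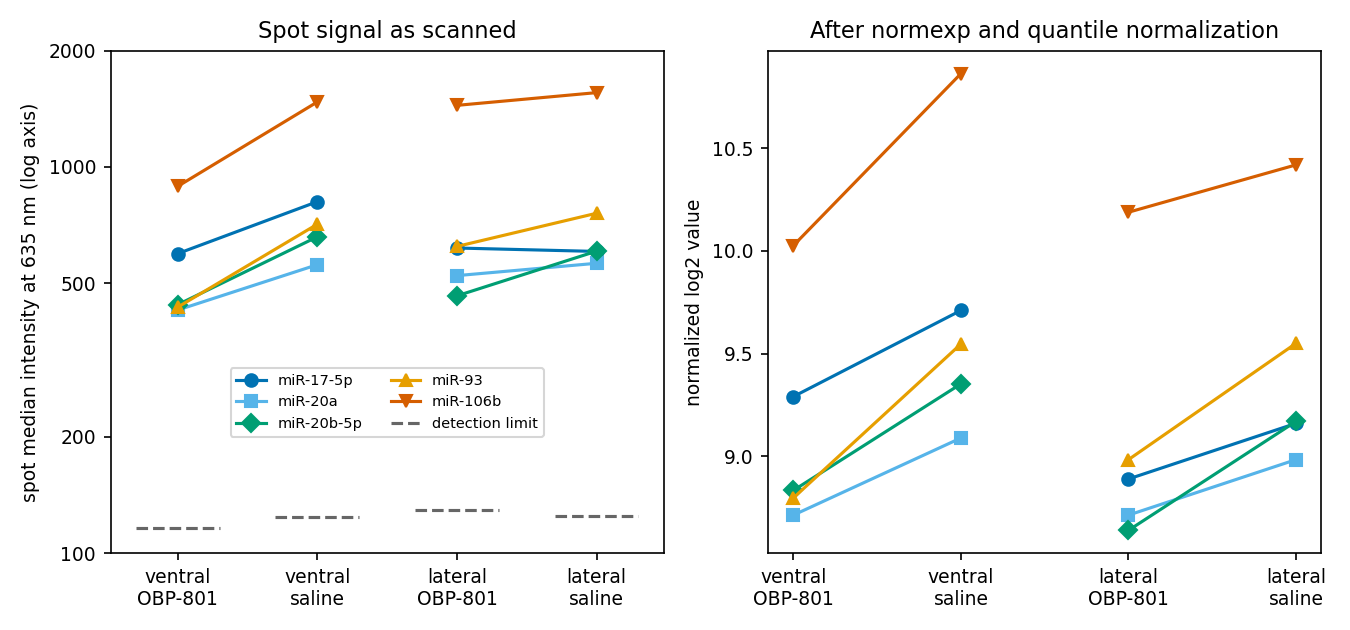
Values of the 5 members on the 4 arrays, with a line joining the OBP-801 and the saline array of each lobe. Left, spot median intensity on a log axis, with the detection limit of each array as a dashed line; right, normalized log2 values. Each point is 1 spot on 1 array, so there are no error bars. Normalized values are lower after OBP-801 for all 5 members in both lobes, while the scanned signal of miR-17-5p in lateral prostate is 617 after OBP-801 and 604 after saline.

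The first comparison sets the OBP-801 array against the saline array for the family, beginning with ventral prostate. All 5 members lay below saline, with differences from -0.84 to -0.38 and a median of -0.52. The median over all 260 miRNAs detected on both arrays was -0.02, with a spread (SD scaled from the median absolute deviation) of 0.26. At a size of 1.5-fold, 2 of 5 members were lower, miR-106b and miR-93, against 3.85% of all miRNAs, and 0 members were higher, against 2.69%. At 2-fold no member was lower, and neither was any other miRNA (0%). Counted from the lowest difference of the 260, miR-106b ranked 3, miR-93 ranked 4 and miR-20b-5p ranked 14, while miR-17-5p ranked 24 and miR-20a ranked 28. A share of 52.7% of all miRNAs lay below 0. The count at 1.5-fold was 1 of 5 once print block medians were removed (miR-93 was then at -0.55) and 5 of 5 in the authors' deposited value table, where 40.4% of all miRNAs were 1.5-fold lower and their median was itself at -0.47. No p-value can be given for 1 array against 1.

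In lateral prostate all 5 members also lay below saline, by less than in ventral prostate for 4 of them. The lateral differences spanned -0.57 to -0.23, with a median of -0.27. Over all 271 miRNAs detected on both arrays the median was 0.00 and the spread 0.23. No member was 1.5-fold lower, against 2.58% of all miRNAs, none was 1.5-fold higher (2.21%), and none was 2-fold lower (0.369%). Of the members, miR-93 came closest at -0.57 and ranked 9 from the lowest, and miR-20b-5p ranked 12. The remaining members ranked 38 (miR-17-5p), 39 (miR-20a) and 45 (miR-106b), near or within the spread of all miRNAs. Below 0 were 48.7% of all miRNAs. With no normalization between arrays, the lateral median of all miRNAs was 0.19, that of the family was -0.13, and 4 of 5 members were below 0, the exception being miR-17-5p.

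Across the lobes, all 5 members were below 0 in both, as were 32.6% of the 242 miRNAs detected on all 4 arrays. The members differed in how alike the lobes were. The ventral difference minus the lateral one was -0.61 for miR-106b, where the 5th percentile of the 242 miRNAs was -0.53 and their spread was 0.25. For the other 4 members it lay between -0.18 and 0.01. The value for miR-106b depended on the scaling, at -0.27 with median centring (5th percentile -0.30) and -0.367 with cyclic loess (5th percentile -0.369). It was also above the percentile with the blank level subtracted (-0.66 against -0.76) and no normalization (-0.62 against -0.66). With spike scaling it was -0.52 against -0.55, and in the deposited value table -0.84 against -1.46 (rank 67 of 242 from the lowest). It stayed below with no background correction (-0.59 against -0.49) or an offset of 16 (-0.62 against -0.57). The same held with print block medians removed (-0.71 against -0.52). The gap of miR-106b was not tested, since each lobe has 1 array per agent.

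**Figure D2:**
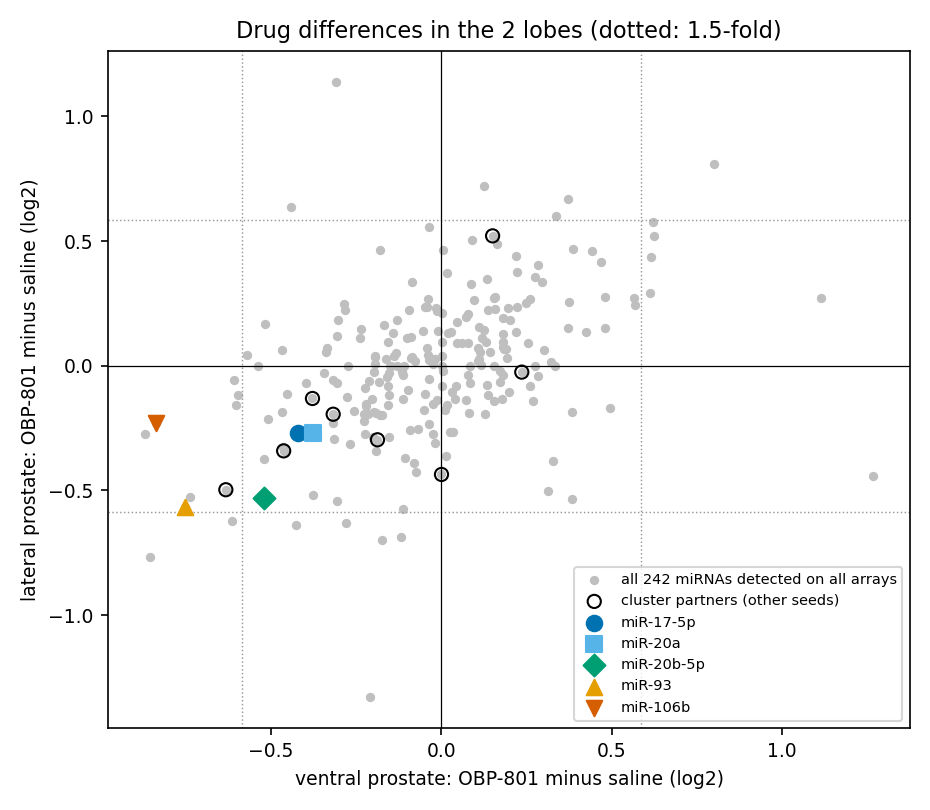
Drug difference (OBP-801 minus saline, log2) in lateral against ventral prostate for the 242 miRNAs detected on all 4 arrays (grey), the 5 members (coloured symbols) and the partners from the same clusters with other seeds (open circles). Dotted lines mark 1.5-fold. The 5 members all lie in the lower left part, with miR-106b the furthest left of them (-0.84) and at a height of -0.23.

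An additive fit of agent and lobe to the 4 arrays gives each member an error. That error comes from the disagreement between the lobes, moderated by the residual variances of all miRNAs in the fit. It does not measure the variation between rats or between repeated arrays of a group, since each group was 1 array. Agent also coincides with the cell number of the arrays in the scanner files, so the fit cannot tell agent from cell. The fit had 1 residual degree of freedom and 2.54 prior ones. For OBP-801 against saline, miR-93 had a difference of -0.66 (SE 0.0999) and miR-20b-5p one of -0.52 (SE 0.0872), both with an adjusted p of 0.153 (limma, Benjamini-Hochberg over 242 miRNAs). The fitted difference of miR-106b was -0.53 with the widest error of the members (SE 0.183, limma adjusted p = 0.295). For miR-17-5p the fit gave -0.35 (SE 0.0957) and for miR-20a -0.32 (SE 0.0915), each with a limma adjusted p of 0.240. At an adjusted p of 0.05, 0 of 5 members and 0% of all miRNAs passed in limma. Without adjustment 16.5% of all miRNAs passed 0.05 in either direction and 8.26% were lower. Among the members 4 of 5 did so, all but miR-106b. The call depended on the scaling: with cyclic loess 3 members passed the adjusted threshold (miR-93, miR-20b-5p and miR-106b), as did 13.6% of all miRNAs. With cyclic loess all 5 members had the same SE of 0.148, so a member's own disagreement between the lobes had no part in its call. With no background correction (3.72% of all miRNAs), an offset of 16 (7.02%) or scaling on the spike controls (7.44%) miR-93 and miR-20b-5p passed, and with the blank level subtracted (6.2%) miR-93 did.

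The second comparison sets the lobes against each other under each agent, with the same 4 arrays as above. After OBP-801, differences of lateral minus ventral prostate ran from -0.40 for miR-17-5p to 0.19 for miR-93, around a family median of 0.00. Of the others, miR-20b-5p had -0.19, miR-106b 0.16 and miR-20a 0.00, since its rank was equal on both arrays. Under saline the differences were -0.55 for miR-17-5p, -0.44 for miR-106b, -0.18 for miR-20b-5p, -0.11 for miR-20a and 0.00 for miR-93, with a median of -0.18. Below 0 were 2 of 5 members after OBP-801, against 52.4% of all miRNAs, and 4 of 5 under saline, against 55.3%. After OBP-801 the count was 0 of 5 without normalization (10.3% of all miRNAs), with the spike controls (9.59%) and in the authors' deposited value table (10.3%). It was 3 of 5 with median centring (65.3%) or cyclic loess (56.5%). Under saline it was 2 of 5 without normalization (46.7%) or with the spike controls (25.5%), and 3 of 5 with median centring (47.8%). With cyclic loess (52.9%), print block medians removed (57.6%) or the deposited table (60.8%) it was 5 of 5 under saline. No member differed 1.5-fold between lobes, where 2.58% of all miRNAs were lower and 4.06% higher after OBP-801, and 1.96% lower and 3.53% higher under saline. That too depended on the scaling. After OBP-801, miR-106b was past 1.5-fold at 0.70 without normalization, 0.71 with the spike controls and 0.78 in the deposited table, where miR-93 was at 0.64. Under saline, miR-17-5p was past it at -0.61 with the blank level subtracted, -0.64 with cyclic loess and -0.66 in the deposited table. Shares of all miRNAs past 1.5-fold in either direction under these settings ran from 6.67% (cyclic loess, saline) to 43.5% (deposited table, OBP-801), against 6.64% after OBP-801 and 5.49% under saline as reported. The spread over all miRNAs was 0.21 after OBP-801 and 0.25 under saline. The member furthest from 0 under both agents was miR-17-5p. In the additive fit its lobe difference was -0.48 (SE 0.0957, limma adjusted p = 0.125, with 0% of all miRNAs past 0.05), and the other 4 members lay between -0.19 and 0.09. After OBP-801, however, miR-17-5p was at 0.04 without normalization, at 0.06 with scaling on the spike controls and at 0.05 in the authors' deposited value table, so its direction there rests on the scaling. The same 3 settings put miR-20b-5p at 0.06, 0.07 and 0.08 after OBP-801. Under saline miR-17-5p was below 0 in all 9 alternatives that change the values, from -0.66 to -0.35. The saline difference of miR-106b turned with the scaling as well, to 0.08 without normalization, 0.06 with median centring and 0.20 with the spike controls.

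The neighbours of the family in the 3 clusters carry other seeds (miR-18, miR-19, miR-25 and miR-92 among them) or are opposite arms. Of 20 such partner probes, 8 were detected on all 4 arrays and 8 on none. In ventral prostate the 8 had a median of -0.25, with 5 below and 3 above 0, where 52.7% of all miRNAs were below. In lateral prostate their median was -0.25, with 7 below and 1 above, where 48.7% of all miRNAs were below. Only miR-19a, which shares the miR-17-92 transcript with miR-17-5p and miR-20a, passed 1.5-fold, at -0.63 in ventral prostate, while in lateral prostate it was at -0.50. The signal of miR-19a was 189.6 in ventral OBP-801 and 291 in ventral saline, and 235 in lateral OBP-801 and 281 in lateral saline. Named after their values were seen, miR-92a-2*, with 0.15 in ventral and 0.52 in lateral prostate, was the partner above 0 in both lobes, and miR-19b had 0.24 and -0.03. The 8 partners thus ranged from -0.63 to 0.24 in ventral prostate and from -0.50 to 0.52 in lateral prostate.

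The opposite arms of the members were dim. That of the first miR-17 locus, miR-17-1-3p, was just above the limit on all arrays, with a signal of 133.8 in ventral OBP-801 and 140.2 in ventral saline, and 133.7 in lateral OBP-801 and 149.2 in lateral saline. After normalization it differed by 0.00 in the ventral lobe and by -0.44 in the lateral lobe. The arm of the X-linked copy, miR-17-2-3p, was detected on no array, with signals of 82.2 to 108.9, and so were miR-20b-3p and miR-93*. The opposite arm miR-106b* was detected on 3 arrays, at 107.3 in ventral OBP-801 (below the limit) and 140.4 in ventral saline, and at 169.4 in lateral OBP-801 and 171.3 in lateral saline. Its lateral difference was -0.20. The starred arm miR-20a* passed the limit on the array of ventral saline alone, at 129.5 against a limit of 123.9.

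**Figure D3:**
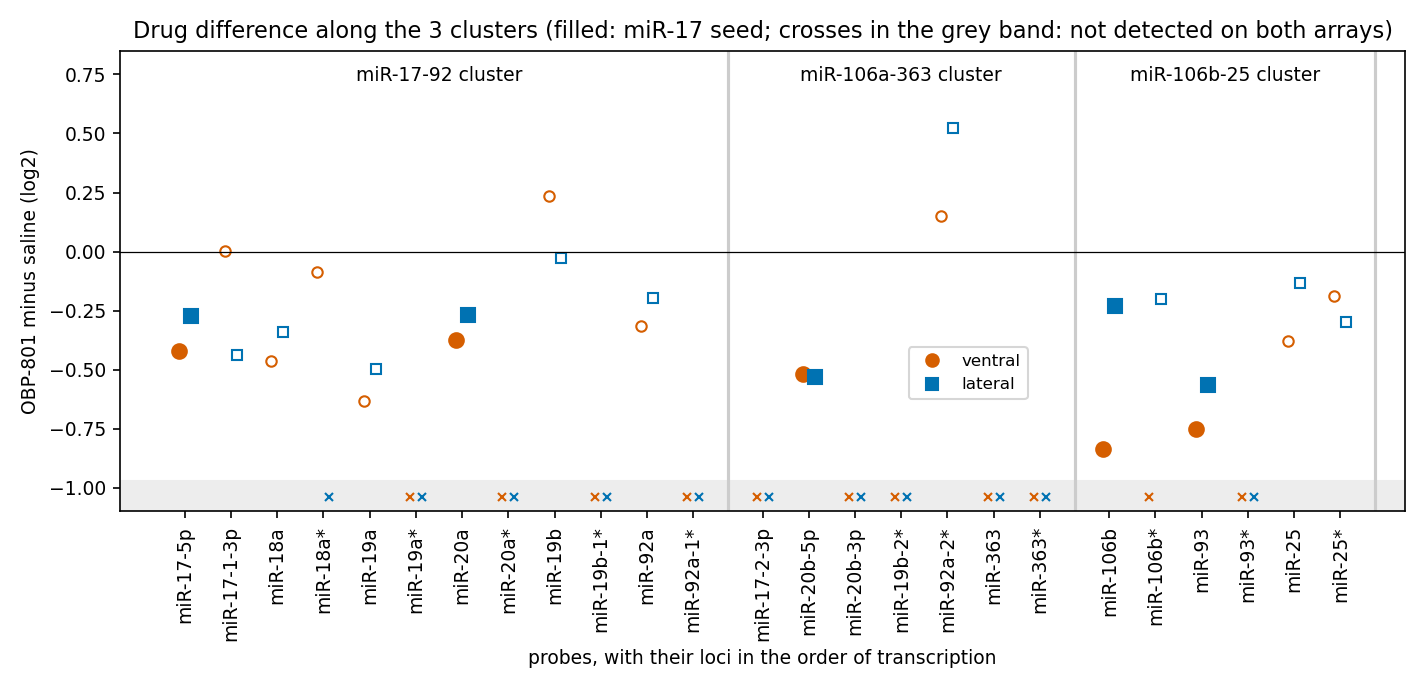
Drug difference (OBP-801 minus saline, log2) along the 3 clusters, with loci in the order of transcription, for ventral (circles) and lateral prostate (squares). Filled symbols are the 5 members, open symbols the partners, and crosses in the grey band mark probes not detected on both arrays of a lobe; the miR-17-5p probe also reads the copy in the miR-106a-363 cluster. The lowest values are those of miR-106b and miR-93 in ventral prostate, while miR-92a-2* lies above 0 in both lobes.

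The miRNAs with the profile nearest to the family's were sought among the 242, by the root mean square distance between log2 profiles over the 4 arrays, each centred on its own mean. Nearest to the members' mean profile were miR-19a at 0.054, miR-26b at 0.061, miR-186 at 0.098, miR-29b, which represses collagens, at 0.109, and miR-7a at 0.112. The median distance of all 242 was 0.283. The members themselves lay at 0.062 (miR-20b-5p) to 0.175 (miR-17-5p), so that miR-19a was nearer to the mean than any member. Taken singly, miR-106b was nearest to miR-29b, miR-93 to miR-125a-3p, miR-17-5p to miR-23b, miR-20a to the cluster partner miR-92a and miR-20b-5p to miR-19a. No member had another member as its nearest profile. Over 4 arrays such distances are a description of these arrays.

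Lists of markers for the cell types the tissue could hold gave the following drug differences. The epithelial miR-200b had a signal of 16479 in ventral OBP-801 and 17969 in ventral saline, and of 38562 in lateral OBP-801 and 24427 in lateral saline, and it differed by 0.27 in the ventral and 0.00 in the lateral lobe after normalization. The ventral 0.27 of miR-200b comes from rank, since its signal was lower after OBP-801. It was the brightest miRNA in ventral OBP-801 but not in ventral saline, where the maximum was 21101. The lateral 0.00 of miR-200b comes from an equal rank on both arrays, to which quantile normalization gives 1 value whatever the signal. The same holds for miR-200a and miR-429, and so for the lateral median of the epithelial list. Liver miR-122 was detected on no array. All 8 epithelial markers were detected, with a drug median of -0.23 in ventral prostate (6 of 8 below 0, against 52.7% of all miRNAs). In lateral prostate their median was 0.00 (3 of 8 below 0, against 48.7%). Named after its values were seen, miR-205 of this list was at 0.62 in ventral and 0.58 in lateral prostate. The 5 stromal markers had medians of 0.34 in ventral prostate (4 of 5 above 0) and 0.27 in lateral prostate (4 of 5 above 0). Below 0 were 1 of 5 in ventral prostate, against 52.7% of all miRNAs, and 0 of 5 in lateral prostate, against 48.7%. Their summed signal as scanned was 8289 in ventral OBP-801 and 7079 in ventral saline, and 17730.3 in lateral OBP-801 and 9808 in lateral saline. Such sums are not normalized, and without normalization the lateral median of all miRNAs was itself 0.19. The lateral sum of the epithelial markers was higher too, at 76798 after OBP-801 and 59253 after saline. That of the leukocyte markers was not, at 1219 and 1236. The endothelial pair had medians of 0.29 and 0.24, with miR-126 at 0.47 and 0.42, and the 5 leukocyte markers -0.15 and -0.18, with miR-142-3p at -0.15 and -0.12. In that list, named after the values were seen, miR-142-5p was at -0.61 in ventral and -0.62 in lateral prostate, and miR-223 at -0.57 and 0.04. The part of these markers in the family's values was not tested. The smooth muscle miR-143 had 0.16 in ventral and 0.00 in lateral prostate, where its rank was equal on both arrays and its signal was 7378 after OBP-801 and 5499.8 after saline. Its cluster partner miR-145, named after its values were seen, had -0.31 in ventral and 1.14 in lateral prostate, with a lateral signal of 8084 after OBP-801 and 2821 after saline. Of the remaining lists, erythroid miR-451 had -0.04 and 0.56, while miR-144 of that list was detected on no array. Neuronal miR-9 had -0.32 and -0.23, and miR-124 of that list was detected on 1 of the 4 arrays. The 2 striated muscle markers detected on all 4 arrays, miR-133a and miR-133b, had a median of 0.14 in ventral prostate. In lateral prostate their median of 0.00 lay between -0.26 for miR-133a and 0.27 for miR-133b. Their median lateral minus ventral difference was 0.84 after OBP-801 and 0.99 under saline. Of the same list, miR-206 was detected on 3 arrays and miR-1 on the 2 lateral ones.

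Place on the array was examined too. The 5 members sit in 5 different print blocks of 16. The median ventral drug difference of the miRNAs in a member's block was between -0.08 and 0.02 for 4 members, and -0.21 for miR-93 over 9 probes. In lateral prostate the block medians lay between -0.02 and 0.03 for those 4 and at -0.15 for miR-93. Both OBP-801 arrays were cell 2 and both saline arrays cell 1 in the scanner files, so cell and agent cannot be told apart.

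**Figure D4:**
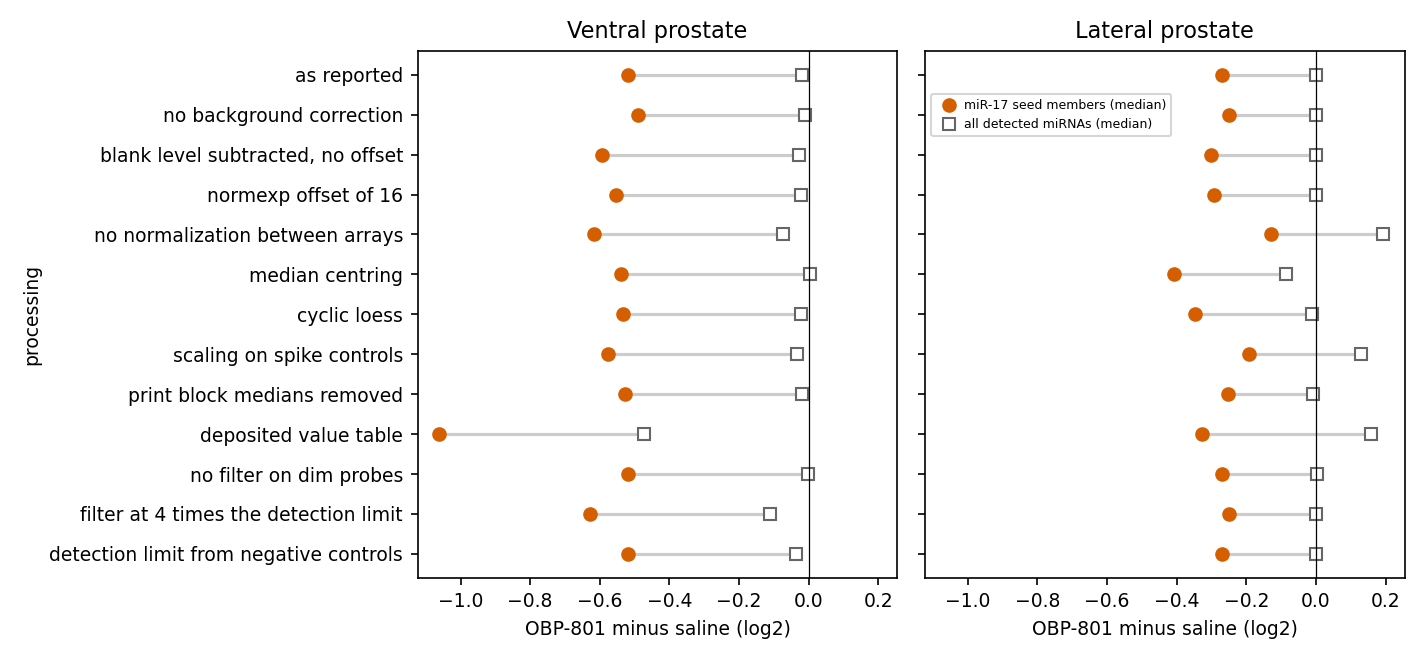
Median drug difference (OBP-801 minus saline, log2) of the members (filled circles) and of all detected miRNAs (open squares) under the reported processing and 12 alternatives, in ventral (left) and lateral prostate (right). The grey line is the gap between both medians, which lies from -0.59 to -0.48 in ventral prostate and from -0.48 to -0.24 in lateral prostate over all settings.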

How the data were processed

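Per the labels' protocols, Hy5-labelled total RNA was read on 1-colour miRNA arrays. The deposited scanner files hold the median intensity of each of 3136 spots and its local background, neither corrected nor normalized, per the file headers. The deposited value table holds intensity values processed by the authors in steps not given in the sources used here. Every column proved linear in the scanned signal and had a median of 25, which makes it a linear scale set per array, with its centring unstated. It was used as an alternative.

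Background was corrected with normexp (offset 50), control spots were left out, 1 faulty spot (not of a member) was set to missing, and log2 values were quantile-normalized (limma 3.58.1, R 4.3.3). The additive fit used lmFit and eBayes with Benjamini-Hochberg adjustment on 242 miRNAs detected on all arrays, and was run on simulated data. The simulated data had independent noise of the same size for every miRNA and the same drug change in both lobes. They therefore cannot tell how the fit performs on the real arrays. Detection limits were 116.4 (ventral OBP-801), 123.9 (ventral saline), 129.1 (lateral OBP-801) and 124.6 (lateral saline). The number of arrays, 4, limits the precision. Named were all members, partners changed 1.5-fold, opposite arms, the 5 nearest profiles and a defining marker per cell type. Members, lists and rules were chosen with earlier results of these data known. Alternatives changed the background correction, the normalization between arrays, print block medians, the source of values, the filter on dim probes and, for the fit, the prior of eBayes.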

Additional observations from a re-analysis of the deposited data

Results flagged for a closer look

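The lobe difference of miR-106b (lateral minus ventral) was 0.16 after OBP-801 and -0.44 under saline, in opposite directions, a gap of 0.61 that was not tested. The saline value was above 0 in 3 of 9 alternatives (0.08 without normalization, 0.06 with median centring and 0.20 with spike scaling). The ventral minus lateral drug difference, the same gap with its sign turned, was -0.27 with median centring and -0.37 with cyclic loess. It lay above the 5th percentile of the 242 miRNAs under both. The same held with the blank level subtracted, no normalization, spike scaling or the deposited value table. Of the cluster partners, miR-17-1-3p had a drug difference of 0.00 in ventral and -0.44 in lateral prostate (gap 0.44), and miR-19b one of 0.24 and -0.03 (gap 0.26). The marker miR-451 had -0.04 and 0.56 (gap -0.59). For these 3 miRNAs the drug difference had opposite signs in the lobes, and for miR-106b, below saline in both lobes, the lobe difference had opposite signs under the agents. With 1 array per group none of these differences was tested. The first value of miR-17-1-3p, the second of miR-19b and the first of miR-451 lie close to 0.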

How the results depend on the processing

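The family medians and the 1.5-fold drug counts were recomputed under 12 alternatives, the additive fit also with a trended eBayes, and each member's differences under the 9 that change the values. Ranks within a comparison, counts over both lobes, cluster partners, nearest profiles and cell type markers were not recomputed. The ventral minus lateral drug difference was ranked again under the 9, where miR-106b ran from rank 4 to rank 67 of 242, counted from the lowest. The family's median drug difference stayed below 0 in both lobes under all of them, from -1.06 to -0.49 in ventral and from -0.41 to -0.13 in lateral prostate. The ventral extreme of -1.06 was in the deposited value table, where 5 of 5 members and 40.4% of all miRNAs were 1.5-fold lower and the median of all miRNAs was -0.47. The ventral count of members 1.5-fold lower was 3 with the blank level subtracted (11.5% of all miRNAs) or no normalization (3.85%), 1 with print block medians removed (2.69%) and 1 of 2 members left by the filter at 4 times the detection limit (9.84%). The lateral count was 2 with the blank level subtracted (13.7%) and 1 with an offset of 16 (4.43%), median centring (3.69%) or the deposited table (7.01%). The lateral minus ventral median after OBP-801 was 0.30 with no normalization, 0.31 with scaling on spike controls and 0.37 in the deposited table. Under saline it was 0.13 with spike scaling and -0.50 over the 2 members left by the stricter filter. Members past an adjusted p of 0.05 in the additive fit (limma) numbered 3 with cyclic loess, 2 with no background correction, an offset of 16 or spike scaling, 1 with the blank level subtracted and 0 under the others, a trended eBayes included. Over the alternatives the adjusted p ranged from 0.0028 to 0.559 for miR-93, from 0.0043 to 0.559 for miR-20b-5p and from 0.0060 to 0.632 for miR-106b (limma). The lowest value of each came with cyclic loess, where all members had the same SE. The ranges for miR-17-5p (0.124 to 0.760) and miR-20a (0.098 to 0.739) stayed above the threshold; the stricter filter left out miR-20a, miR-20b-5p and miR-93. The cause of these shifts was not tested. The labels give no replicate numbers. The additive fit pairs the arrays by lobe, and no other paired fit was run. Without a replicate, a median was taken as moved when it shifted by more than the spread of all miRNAs.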
